A study of Mus musculus with 6 samples.

Results

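The 27 genes described are the solute carrier genes of the deposited table, chosen as those whose name starts with Slc followed by a digit, without Slc15a2, Slc40a1 and Slc12a2. The table holds 1386 genes and loci in all, and the GENCODE M21 annotation holds 371 genes of this name with a protein-coding transcript. Solute carriers are membrane proteins that move sugars, amino acids, nucleosides, vitamins, metals and ions across the cell surface or organelle membranes. They couple this to a sodium or proton gradient, exchange one solute for another, or let it run down its own gradient. In the small intestine, mature enterocytes on the villus carry many of them in the brush border for absorption, whereas dividing crypt cells use carriers for amino acids, glucose and metals to supply growth.

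The RNA came from epithelial cells isolated from the intestine of wild-type mice fed regular chow. From 8 weeks of age 1 group received 400000000 Akkermansia muciniphila (Akk), a gut bacterium that feeds on mucus, by gavage every day for 7 weeks, and the control group received the carrier PBS in the same way. Each group had 3 libraries, called replicates 1 to 3 here. No label ties a library to a single animal, and the p-values therefore reflect only how these libraries vary, which may in part be technical. How many animals stand behind each library is not given in the sources used here. In its title the series names the jejunum, lipid absorption and AMPK.

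The table holds only genes that the authors had selected on these 6 libraries, as higher or lower in Akk, so the direction of each gene comes from the authors' deposited table and a renewed test is no independent evidence of it. A solute carrier gene outside the table either did not meet the authors' criteria or had no measurement. Of 20 absorptive carriers looked up by name, chosen after values were seen, none was listed. Among them were the glucose carriers Slc5a1 and Slc2a2, the fructose carrier Slc2a5, the peptide carrier Slc15a1 and the neutral amino acid carrier Slc6a19. Because of this choice the count does not speak for absorptive carriers in general. The brush border carriers Slc9a3 and Slc34a2, for example, were listed as higher. Depth, as implied by the files, ranged from 23457478 to 29245814 fragments per library. Of the lists of cell type markers, 13 of 17 Paneth cell, 7 of 18 stem cell and 31 of 32 proliferation genes were listed, all as lower. Goblet cell (2 of 10), enteroendocrine (3 of 12) and pancreas markers (1 of 14) were listed in part, Muc13, Zg16, Gip and Sst as higher and Gcg and Clps as lower, and none of 9 tuft, 18 immune or 11 stromal markers was. Of 10 general epithelial markers Krt19 alone was listed, so the labelled cell type could not be checked on the other 9.

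Of the 27 solute carrier genes, 14 were listed as higher in Akk and 13 as lower, in the authors' deposited table. Over the whole table the share listed as higher was 25.0% and that listed as lower 75.0%. The mean FPKM (fragments normalised to gene length and sequencing depth) differed in the listed direction for all 27. Carriers of phosphate, of sodium and protons, of monocarboxylates, of nucleosides and of copper were listed as higher. All 3 genes of the amino acid class and both of the sugar class were listed as lower. The mitochondrial amino acid carriers Slc25a44 (higher) and Slc25a12 (lower) were classed apart. The authors' deposited log2 fold changes ran from 0.60 to 1.62 for the higher genes and from -1.63 to -0.69 for the lower. The higher genes also tended to be the more abundant per length, with ranges that overlapped. Their mean FPKM over the 6 libraries ran from 6.93 (Slc30a1) to 84.4 (Slc9a3), and that of the lower genes from 0.511 (Slc45a4) to 11.6 (Slc1a1). The medians were 20.6 and 1.65, against 6.76 and 4.16 over all genes listed as higher and as lower.

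With the quasi-likelihood test of edgeR over all 1386 genes and Benjamini-Hochberg adjustment, 0 of the 27 passed an adjusted p of 0.05, where the share over the table was also 0%. Adjusted p ran from 0.0861 to 0.526, and all 13 lower genes had a fitted log2 fold change below 0 and all 14 higher genes one above 0. With scaling factors taken from the listed genes (RLE or TMM), which moved the median log2 fold change of the table from -1.85 to -0.15 or -0.17, 6 of the 13 lower genes turned above 0, as did 204 (19.6%) or 191 (18.4%) of the 1040 genes listed as lower. These were Slc35b4, Slc25a12, Slc41a1, Slc27a1, Slc44a3 and Slc12a8. An unadjusted p under 0.05 was seen for 7 of the 27 and for 57.1% of the table. DESeq2 called 14 of 26 solute carrier genes (69.9% of the genes with an adjusted p), 5 of them higher (6.58%) and 9 lower (63.3%), and left Slc7a1 without an adjusted p. The 5 were Slc9a3, Slc34a2, Slc5a8, Slc28a2 and Slc23a4, and the 9 were Slc39a8, Slc7a5, Slc1a1, Slc25a17, Slc45a4, Slc35b4, Slc2a1, Slc44a3 and Slc12a8. With limma none of the 27 passed, in the voom fit (0.144% of the table, all higher) or in the trend fit on log2(FPKM + 0.1) (0.0722%, all higher). A single library carried much of the spread among the lower genes. All 13 were highest in PBS replicate 2, as were 98.3% of the genes listed as lower. The median ratio of this library to the mean of the other 2 PBS libraries was 3.37 for the 13 carriers and 5.77 for all 1040 lower genes. Without PBS replicate 2, edgeR called 5 of the 27 (19.5% of the table), all lower (17.7% of the table lower, 1.73% higher): Slc39a8, Slc7a1, Slc45a4, Slc25a12 and Slc44a3. Without PBS replicate 1 it called 4, all lower (53.0% of the table, 52.2% lower), namely Slc39a8, Slc7a1, Slc7a5 and Slc1a1. Without PBS replicate 3 it called the same 4 as lower and Slc28a2 as higher (52.8%; 50.9% lower, 1.95% higher). PBS replicate 2 was then 1 of 2 controls.

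Among the 14 higher genes the library that stood apart was Akk replicate 3. It was the lowest Akk library for 12 of the 14, against 68.2% of all 346 genes listed as higher, and for 10 of these 12 it lay inside the range of the PBS libraries. For Slc9a3 and Slc18b1 it lay below every PBS library. No higher gene had all Akk libraries above all PBS libraries, where 37.6% of the genes listed as higher did. For Slc28a2 and Slc23a4 it was Akk replicate 1 that overlapped with PBS, lying below PBS replicate 3. Without Akk replicate 3 the count was 12 of 14 (81.2% of the table's higher genes), without Akk replicate 1 it was 2 (45.4%) and without PBS replicate 3 it was 6 (60.7%). No solute carrier gene passed edgeR without Akk replicate 3 (smallest adjusted p = 0.187; 0% of the table).

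**Figure D1:**
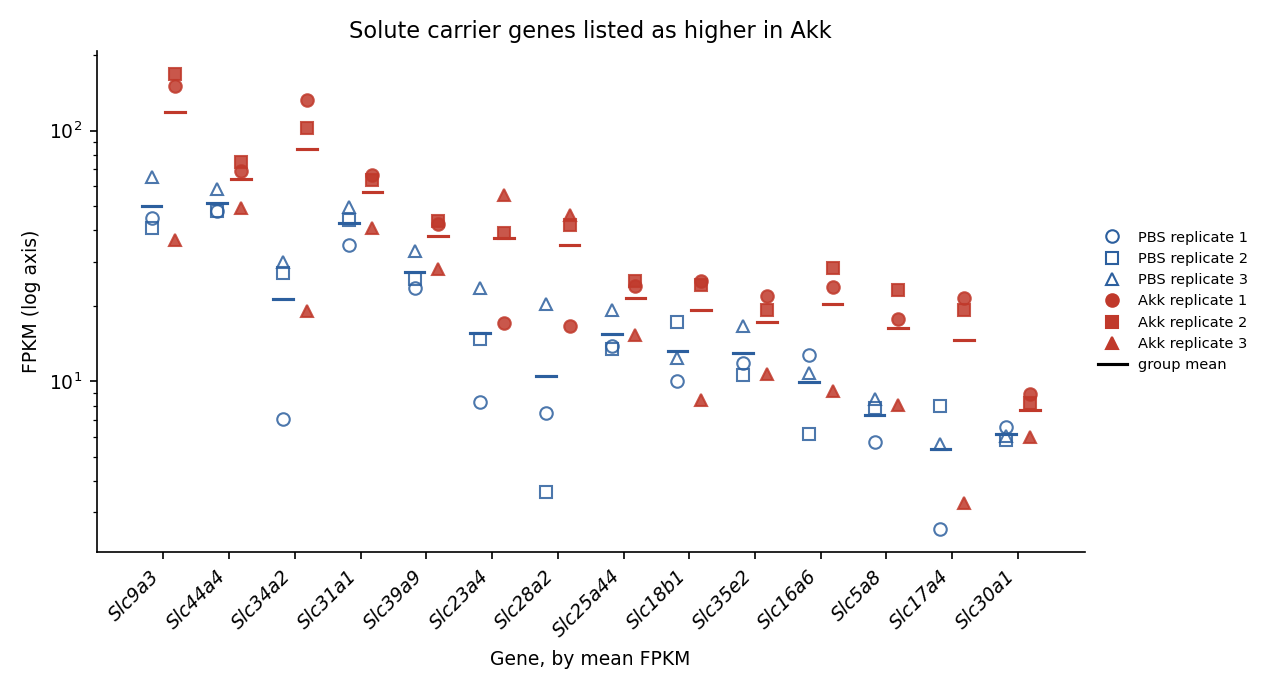
FPKM on a log axis of the 14 solute carrier genes listed as higher in Akk, 1 marker per library (open blue, PBS; filled red, Akk; marker shape, replicate number) and a bar at each group mean. Akk replicates 1 and 2 lie above every PBS library for 12 genes, while Akk replicate 3 lies within or below the PBS range for the same 12 and is the highest library for Slc23a4 and Slc28a2.

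Among the 14 higher genes Slc9a3 had the highest mean level per length and Slc34a2 the largest fitted difference. Slc9a3 encodes NHE3, the brush border exchanger that takes up sodium against protons (chr13:74121457-74169442, plus strand, GRCm38). It had 150.5, 169 and 36.5 FPKM in Akk replicates 1 to 3 and 44.7, 40.8 and 65.2 in PBS replicates 1 to 3. Akk replicates 1 and 2 were the highest libraries and Akk replicate 3 the lowest of all 6. Mean FPKM was 119 ± 71.7 in Akk and 50.3 ± 13.1 in PBS (SD, n = 3), a 2.36-fold ratio, and the fitted log2 fold change was 1.20 (SE 0.58, adjusted p = 0.0991). Without Akk replicate 3 it was 1.63 (SE 0.43, adjusted p = 0.187).

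Slc34a2 encodes NaPi-IIb, the sodium-coupled phosphate carrier of the enterocyte brush border (chr5:53038081-53071664, plus strand). It had 133, 102 and 19.1 FPKM in Akk replicates 1 to 3 and 7.09, 27.1 and 29.8 in PBS replicates 1 to 3. Its highest library stood farther above its lowest, as a ratio, than that of any other of the 14 higher genes. PBS replicate 1 was the lowest library, and Akk replicate 3 lay between PBS replicates 1 and 2. Mean FPKM was 84.7 ± 58.8 in Akk and 21.3 ± 12.4 in PBS (SD, n = 3), which gave a 3.97-fold ratio and a log2 fold change of 1.998 (SE 0.80, adjusted p = 0.0861). Slc17a4, a member of the sodium-phosphate carrier family that also moves organic anions, had 21.4, 19.2 and 3.27 FPKM in Akk and 2.57, 7.996 and 5.61 in PBS, with Akk replicate 3 again between PBS replicate 1 and the other PBS libraries. The log2 fold change was 1.33 (SE 0.79, adjusted p = 0.155), and Akk replicates 1 and 2 averaged 6.21 times Akk replicate 3, close to the 6.14 times of Slc34a2 and above the 4.37 times of Slc9a3.

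Promoters are shown for Slc9a3 and Slc34a2 because of that level and difference, together with that of the zinc exporter gene Slc30a1, a textbook target of the metal-sensing factor MTF-1, and of the lower gene Slc7a1. This choice was made after the values were seen. Each run holds the 250 bases before the RefSeq start, 5′ to 3′ on the gene's strand, build GRCm38.p6. Capitals mark the cores of the metal response element (TGCGCNC or TGCACNC, either strand) and the E-box CACGTG. RefSeq promoters were matched for 21 of the 27 genes, and for Slc17a4 none was matched. The RefSeq start of Slc34a2 lies inside the GENCODE gene, downstream of its annotated start.
Slc9a3 (chr13:74121163-74121412, plus strand): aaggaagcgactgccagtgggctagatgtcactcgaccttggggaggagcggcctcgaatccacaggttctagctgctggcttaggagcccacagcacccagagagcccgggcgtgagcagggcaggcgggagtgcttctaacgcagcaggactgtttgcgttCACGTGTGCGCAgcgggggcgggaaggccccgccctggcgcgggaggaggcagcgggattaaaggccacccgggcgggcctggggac
Slc34a2 (chr5:53049103-53049352, plus strand): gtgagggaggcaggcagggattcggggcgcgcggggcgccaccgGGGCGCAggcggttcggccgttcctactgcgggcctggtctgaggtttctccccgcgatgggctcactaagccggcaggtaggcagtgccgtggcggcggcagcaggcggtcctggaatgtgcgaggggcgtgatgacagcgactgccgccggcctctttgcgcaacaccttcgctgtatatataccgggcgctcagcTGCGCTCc
Slc30a1 (chr1:191906531-191906780, plus strand): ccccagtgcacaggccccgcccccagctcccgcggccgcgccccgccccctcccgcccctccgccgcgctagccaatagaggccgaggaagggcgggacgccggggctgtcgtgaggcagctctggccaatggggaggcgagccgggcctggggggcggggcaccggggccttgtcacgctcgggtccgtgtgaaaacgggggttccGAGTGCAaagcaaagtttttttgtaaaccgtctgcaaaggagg
Slc7a1 (chr5:148399905-148400154, minus strand): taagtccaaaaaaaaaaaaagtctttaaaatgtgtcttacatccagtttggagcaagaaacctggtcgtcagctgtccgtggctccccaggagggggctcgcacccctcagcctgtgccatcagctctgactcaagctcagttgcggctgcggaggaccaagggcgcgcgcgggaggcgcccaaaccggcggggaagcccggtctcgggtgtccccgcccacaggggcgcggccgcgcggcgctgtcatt

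The run of Slc34a2 held 2 metal response element cores, those of Slc9a3 and Slc30a1 held 1 each and that of Slc7a1 held 0. In Slc9a3 the core overlapped the single E-box, so both stand in 1 stretch of capitals. A core of either form was found for 8 of the 21 matched genes, counting every RefSeq start, and in 21.4% of all 32851 promoters of this length. The E-box was found for 3 of 21 (6.02% of promoters), Slc9a3, Slc39a8 and Slc27a1, and the amino acid response element TGATGNAA, either strand, for 0 of 21 (3.45% of promoters). The 4 runs were rich in G and C, at 67.6%, 69.6%, 71.2% and 62.4% in the order shown, against a median of 52.4% over all promoters. A gene was counted if any of its RefSeq starts matched, whereas each share is over single starts. The counts and shares of motifs are therefore not in the same unit. These matches describe letters in a window and do not show binding.

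Both monocarboxylate carriers in the table were listed as higher. Slc5a8 encodes SMCT1, a sodium-coupled carrier of short-chain fatty acids, lactate and ketone bodies (chr10:88885992-88929515, plus strand). It had 17.7, 23.1 and 8.07 FPKM in Akk and 5.72, 7.82 and 8.51 in PBS, replicates 1 to 3 in each. Akk replicate 3 lay within the PBS range, above PBS replicates 1 and 2 and below PBS replicate 3. The fitted difference was a log2 fold change of 1.15 (SE 0.53, adjusted p = 0.0902), and 1.19 (SE 0.45, adjusted p = 0.0753) without PBS replicate 2, the smallest adjusted p among the higher genes there. Slc16a6, of the monocarboxylate carrier family and known for ketone body export from liver, had 23.7, 28.3 and 9.16 FPKM in Akk and 12.7, 6.18 and 10.8 in PBS. It had a log2 fold change of 1.05 (SE 0.58, adjusted p = 0.131), with PBS replicate 2 as the lowest library. The exons of Slc16a6 share 21.5% of their bases with Amz2 on the opposite strand, so without a stated strand setting reads of the 2 genes may have been mixed.

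Slc28a2 and Slc23a4, which carry nucleosides and nucleobases, had another order of libraries. Slc28a2 encodes CNT2, the sodium-coupled carrier of purine nucleosides and uridine (chr2:122426477-122461137, plus strand). It had 16.6, 41.97 and 46.00 FPKM in Akk replicates 1 to 3 and 7.50, 3.63 and 20.3 in PBS replicates 1 to 3. Akk replicates 2 and 3 lay above all PBS libraries, Akk replicate 1 lay below PBS replicate 3, and PBS replicate 2 was the lowest. With all libraries the log2 fold change was 1.79 (SE 0.78, adjusted p = 0.0867), and it passed edgeR only without PBS replicate 3, at a log2 fold change of 2.81 (1.95% of the table passed as higher there). Of the 50-base windows of its longest transcript, 39.8% also occur in Gm14085, a gene that is not listed, so reads may have been split between the 2 and the single value is uncertain. For the other 26 genes this share was at most 2.13%.

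Slc23a4 belongs to the ascorbate carrier family, and its rodent product is known as a sodium-coupled nucleobase carrier (chr6:34945278-34988404, minus strand). It had 17.04, 39.02 and 55.5 FPKM in Akk and 8.27, 14.8 and 23.5 in PBS, so that Akk replicate 3 was the highest library and Akk replicate 1 lay between PBS replicates 2 and 3. Its log2 fold change was 1.27 (SE 0.62, adjusted p = 0.101). Leaving out Akk replicate 3 lowered it to 0.87, whereas the same step raised that of the 12 genes lowest in Akk replicate 3, for example Slc9a3 as given above. The purine enzymes Ada (adenosine deaminase) and Nt5e (the ecto-nucleotidase that makes adenosine), both in the enterocyte marker list, were listed as higher too. Both were chosen after values were seen. Ada had 101, 326 and 492 FPKM in Akk and 39.5, 23.1 and 139.8 in PBS, and Nt5e 3.37, 8.32 and 7.68 FPKM in Akk and 1.80, 0.386 and 4.49 in PBS. With all libraries edgeR gave a log2 fold change of 2.18 (SE 0.82, adjusted p = 0.0861) for Ada and 1.53 (SE 0.90, adjusted p = 0.152) for Nt5e. Without PBS replicate 2 neither passed edgeR (adjusted p = 0.0944 for Ada and 0.122 for Nt5e). In both genes, Akk replicate 1 was the lowest Akk library and PBS replicate 2 the lowest of all, as in Slc28a2.

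**Figure D2:**
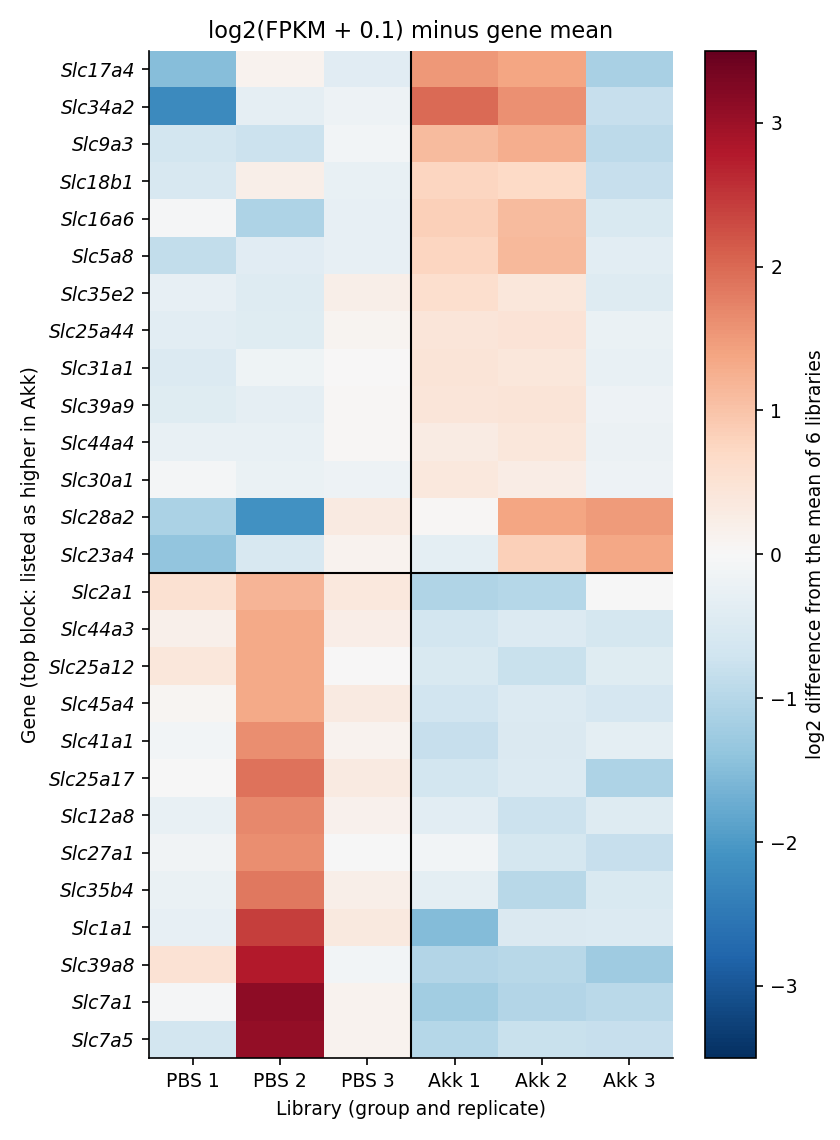
Difference of log2(FPKM + 0.1) from each gene's own mean over the 6 libraries (colour, log2 units) for the 27 solute carrier genes in rows and the libraries in columns; the upper block holds the genes listed as higher in Akk, ordered by the ratio of Akk replicate 3 to the other Akk libraries. In the upper block 12 rows are reddest in Akk replicates 1 and 2, Slc28a2 and Slc23a4 in Akk replicates 2 and 3, and the lower block is darkest red in PBS replicate 2.

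Metal carriers were listed in both directions. Slc31a1 encodes CTR1, the copper importer, and had 66.4, 63.5 and 40.9 FPKM in Akk and 35.1, 43.97 and 49.5 in PBS, replicates 1 to 3 in each. Slc39a9, a zinc importer of the ZIP family, had 42.4, 43.7 and 28.1 FPKM in Akk and 23.5, 25.6 and 33.03 in PBS. Slc30a1 encodes ZnT1, the zinc exporter of the basolateral membrane, and had 8.92, 8.18 and 5.98 FPKM in Akk and 6.56, 5.85 and 6.07 in PBS. In all 3, Akk replicates 1 and 2 were the highest libraries and Akk replicate 3 lay within the PBS range. Ratios of Akk to PBS means were 1.33, 1.39 and 1.25 in this order. The fitted log2 values were 0.41 (SE 0.41, adjusted p = 0.370), 0.47 (SE 0.41, adjusted p = 0.308) and 0.32 (SE 0.47, adjusted p = 0.526).

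Slc39a8 encodes ZIP8, an importer of zinc, manganese and iron (chr3:135825279-135888572, plus strand), and was listed as lower. It had 0.273, 0.289 and 0.221 FPKM in Akk replicates 1 to 3 and 0.976, 5.12 and 0.611 in PBS replicates 1 to 3. Every Akk library lay below every PBS library, and the lowest count behind these values was 29, in Akk replicate 3. The log2 fold change was -3.002 (SE 0.94, adjusted p = 0.0861). Without PBS replicate 2 it was -1.52 (SE 0.33, adjusted p = 0.0409), the largest difference among the 5 carriers that passed there. Slc41a1, a magnesium carrier, had 0.392, 0.514 and 0.578 FPKM in Akk and 0.704, 2.60 and 0.845 in PBS. Its log2 fold change was -1.47 (SE 0.74, adjusted p = 0.105), and -0.64 (SE 0.27, adjusted p = 0.0906) without PBS replicate 2.

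**Figure D3:**
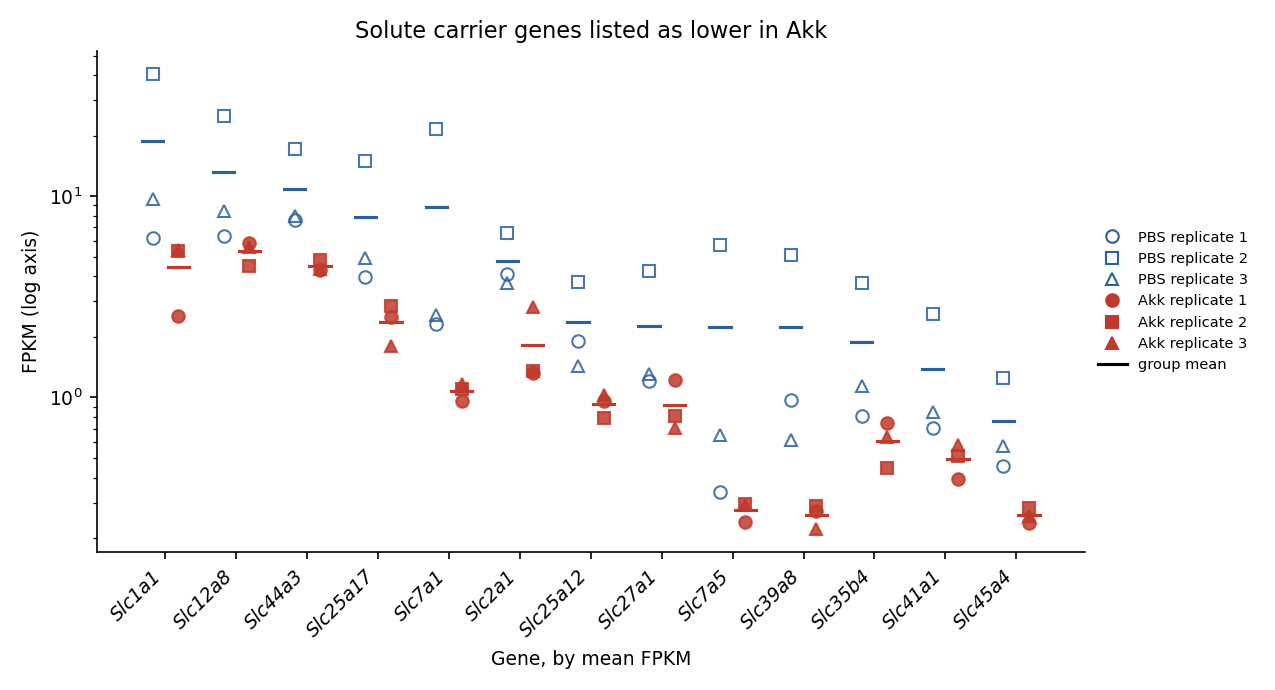
FPKM on a log axis of the 13 solute carrier genes listed as lower in Akk, 1 marker per library (open blue, PBS; filled red, Akk; marker shape, replicate number) and a bar at each group mean. PBS replicate 2 (open square) is the highest library for all 13, and for 12 of them PBS replicates 1 and 3 also lie above every Akk library.

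All 3 genes of the amino acid class, which leaves out mitochondrial carriers, were listed as lower. Slc7a1 encodes CAT1, the carrier of arginine, lysine and ornithine (chr5:148327410-148399904, minus strand). It had 0.957, 1.10 and 1.17 FPKM in Akk replicates 1 to 3 and 2.32, 21.6 and 2.57 in PBS replicates 1 to 3. The libraries did not overlap, and PBS replicate 2 was 8.83 times the mean of the other PBS libraries. The mean of PBS was 8.19 times that of Akk, and 2.27 times if PBS replicate 2 was left out. The log2 fold change was -3.03 (SE 0.95, adjusted p = 0.0861), and without PBS replicate 2 Slc7a1 fell by 1.18 (SE 0.20, adjusted p = 0.0352).

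Slc7a5 encodes LAT1, which exchanges large neutral amino acids such as leucine (chr8:121881150-121907694, minus strand). It had 0.239, 0.296 and 0.293 FPKM in Akk and 0.338, 5.70 and 0.648 in PBS. PBS replicate 2 was 11.6 times the mean of the other PBS libraries, the widest such gap among the 27, and PBS replicate 1 lay just above the Akk libraries. Slc7a5 had a log2 fold change of -2.99 (SE 1.12, adjusted p = 0.0861), and -0.83 (SE 0.38, adjusted p = 0.103) without PBS replicate 2. Slc1a1 encodes EAAC1, the sodium-coupled carrier of glutamate and aspartate (chr19:28835049-28913960, plus strand), and had 2.55, 5.33 and 5.41 FPKM in Akk and 6.22, 40.7 and 9.66 in PBS. Its log2 fold change was -2.09 (SE 0.80, adjusted p = 0.0861), and -0.84 (SE 0.37, adjusted p = 0.0969) without PBS replicate 2. The exons of Slc1a1 share 31.9% of their bases with the antisense gene 4430402I18Rik. Without a strand setting, reads of the 2 genes cannot be told apart in that shared part.

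Of 25 genes of the amino acid stress response, targets of the factor ATF4, 7 were listed, all as lower and all highest in PBS replicate 2. None passed edgeR with all libraries, and 3 passed without PBS replicate 2 (Pck2, Asns and Shmt2), where 19.5% of the table did. Pck2, the mitochondrial form of phosphoenolpyruvate carboxykinase, fell by 1.30 there (SE 0.24, adjusted p = 0.0352), and had 0.400, 0.424 and 0.506 FPKM in Akk and 1.33, 10.7 and 1.14 in PBS. Asns, asparagine synthetase, fell by 1.21 (SE 0.33, adjusted p = 0.0471), and Shmt2, of mitochondrial one-carbon metabolism, by 0.73 (SE 0.20, adjusted p = 0.0490). Phgdh, of serine synthesis, had a log2 fold change of -0.90 (SE 0.44, adjusted p = 0.119) without that library. With all libraries the values were -3.01 (SE 1.004, adjusted p = 0.0861) for Pck2, -2.28 (SE 0.80, adjusted p = 0.0861) for Asns, -1.95 (SE 0.78, adjusted p = 0.0861) for Shmt2 and -3.21 (SE 1.18, adjusted p = 0.0861) for Phgdh.

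Both sugar carriers in the table were listed as lower. Slc2a1 encodes GLUT1, the facilitative glucose carrier of dividing and many other cells (chr4:119108711-119137983, plus strand). It had 1.32, 1.36 and 2.80 FPKM in Akk and 4.11, 6.54 and 3.71 in PBS, replicates 1 to 3 in each. Its PBS replicate 2 was 1.67 times the other PBS libraries, the narrowest gap among the 13 lower genes, and Akk replicate 3 was 2.10 times the other Akk libraries. The log2 fold change was -1.38 (SE 0.67, adjusted p = 0.0984), and -1.10 (SE 0.36, adjusted p = 0.0605) without PBS replicate 2. Slc45a4, of a family of proton-coupled sugar carriers, had 0.239, 0.283 and 0.259 FPKM in Akk and 0.458, 1.25 and 0.571 in PBS. Without PBS replicate 2 it fell by 0.95 (SE 0.25, adjusted p = 0.0442), against -1.49 (SE 0.64, adjusted p = 0.0864) with all libraries.

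Among carriers of mitochondria and peroxisomes, 1 was listed as higher and 2 as lower. Slc25a44, which carries branched-chain amino acids into mitochondria, had 24.1, 25.1 and 15.3 FPKM in Akk and 13.8, 13.4 and 19.2 in PBS and a log2 fold change of 0.47 (SE 0.45, adjusted p = 0.349). Slc25a12 encodes aralar, the mitochondrial exchanger of aspartate and glutamate, and had 0.961, 0.789 and 1.03 FPKM in Akk and 1.90, 3.76 and 1.43 in PBS. It fell by 0.84 without PBS replicate 2 (SE 0.23, adjusted p = 0.0490), against -1.35 (SE 0.67, adjusted p = 0.103) with all libraries. Slc25a17, a carrier of the peroxisomal membrane for coenzyme A and related cofactors, had 2.51, 2.83 and 1.80 FPKM in Akk and 3.95, 14.9 and 4.91 in PBS. The log2 fold change of Slc25a17 was -1.73 (SE 0.76, adjusted p = 0.0881), and -0.89 (SE 0.26, adjusted p = 0.0542) without PBS replicate 2.

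The 2 choline carrier-like genes were listed in opposite directions. Slc44a4, known as a carrier of thiamine pyrophosphate, had 68.7, 74.6 and 48.95 FPKM in Akk and 47.8, 47.8 and 58.4 in PBS and a log2 fold change of 0.32 (SE 0.40, adjusted p = 0.468), with Akk replicate 3 below PBS replicate 3. Slc44a3 had 4.30, 4.82 and 4.33 FPKM in Akk and 7.63, 17.1 and 7.999 in PBS. Its Akk libraries lay within 4.30 to 4.82 FPKM, below all PBS libraries, and without PBS replicate 2 it fell by 0.80 (SE 0.19, adjusted p = 0.0413), against -1.28 (SE 0.59, adjusted p = 0.0900) with all libraries. The fatty acid carrier gene Slc27a1 (FATP1), the single member of the lipid class, had 1.22, 0.813 and 0.707 FPKM in Akk and 1.20, 4.26 and 1.30 in PBS. It was the 1 lower gene whose groups overlapped, with Akk replicate 1 above PBS replicate 1, and its log2 fold change was -1.46 (SE 0.73, adjusted p = 0.106), or -0.61 (SE 0.25, adjusted p = 0.0876) without PBS replicate 2.

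Carriers of nucleotide sugars and of the secretory pathway were listed in both directions. Slc35b4, a Golgi carrier of UDP-xylose and UDP-N-acetylglucosamine, had 0.744, 0.445 and 0.638 FPKM in Akk and 0.807, 3.70 and 1.14 in PBS and a log2 fold change of -1.60 (SE 0.80, adjusted p = 0.106), or -0.63 (SE 0.30, adjusted p = 0.110) without PBS replicate 2. Slc35e2, of the same family with no settled substrate, had 21.9, 19.3 and 10.7 FPKM in Akk and 11.8, 10.6 and 16.7 in PBS and a log2 fold change of 0.40 (SE 0.43, adjusted p = 0.405). Slc18b1, a vesicular polyamine carrier, had 25.1, 24.1 and 8.42 FPKM in Akk and 10.04, 17.2 and 12.4 in PBS. Akk replicate 3 was its lowest library and PBS replicate 2 its highest PBS library, and the log2 fold change was 0.54 (SE 0.57, adjusted p = 0.396). Slc12a8, of the cation-chloride cotransporter family and also described as a carrier of nicotinamide mononucleotide, had 5.86, 4.49 and 5.61 FPKM in Akk and 6.35, 24.9 and 8.46 in PBS and a log2 fold change of -1.29 (SE 0.64, adjusted p = 0.103), or -0.56 (SE 0.25, adjusted p = 0.0971) without PBS replicate 2. Without a stated strand setting, overlap with genes of the opposite strand also touches Slc35b4 (10.0% of its exon bases), Slc30a1 (8.92%), Slc35e2 (8.21%), Slc44a3 (6.90%), Slc39a9 (4.52%, with Erh, which was listed as lower) and Slc2a1 (2.99%).

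**Figure D4:**
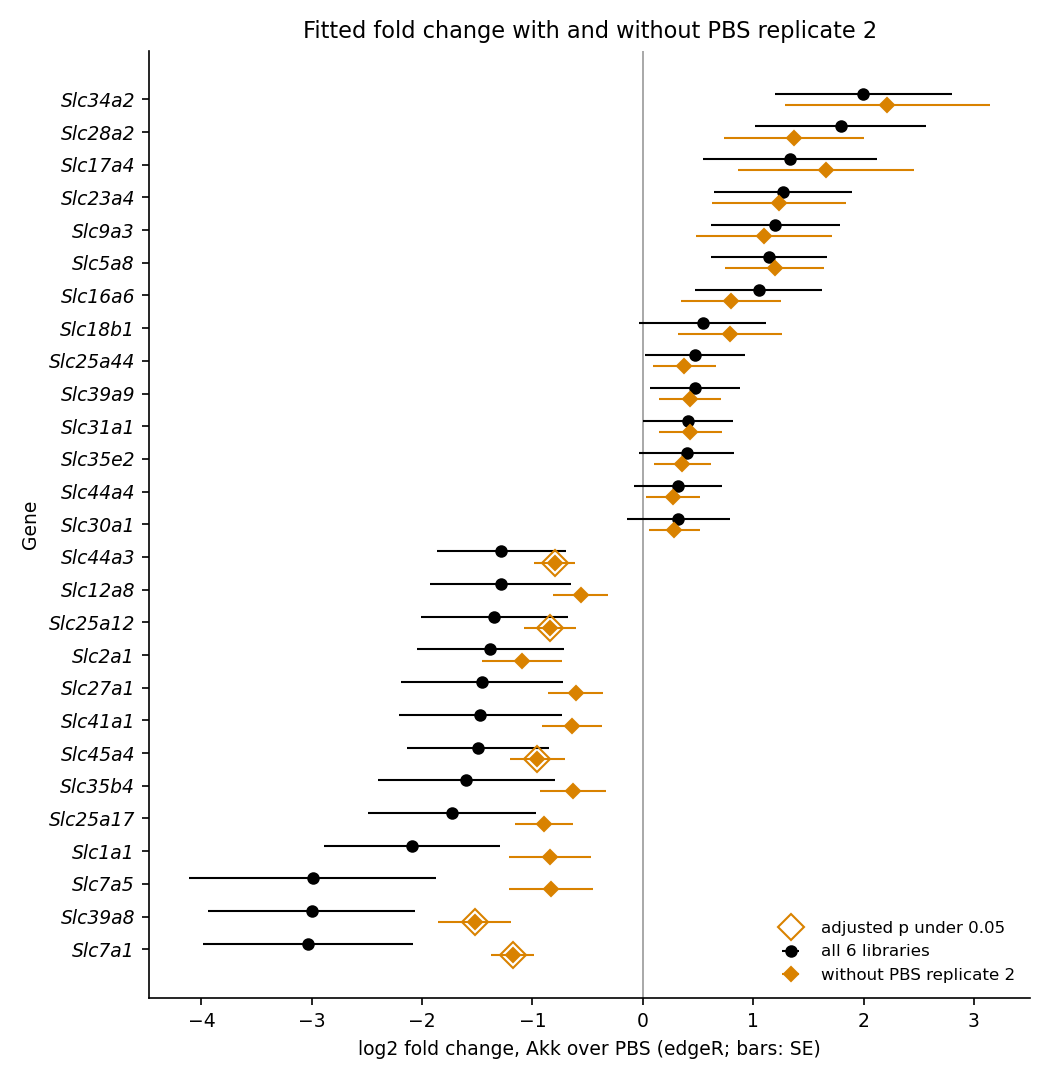
Fitted log2 fold change of Akk over PBS (edgeR; bars, SE) for the 27 solute carrier genes, with all 6 libraries (black circles) and without PBS replicate 2 (orange diamonds; larger open diamonds mark an adjusted p under 0.05). Without PBS replicate 2 the bars of the lower genes shorten, as do those of most higher genes, such as Slc30a1 (SE 0.47 to 0.23). Those of Slc34a2 (SE 0.80 to 0.93), Slc9a3 (0.58 to 0.62) and Slc17a4 (0.790 to 0.798) lengthen. Slc7a1, Slc39a8, Slc45a4, Slc25a12 and Slc44a3 pass without PBS replicate 2.

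In FPKM the groups did not overlap for 12 of the 13 lower genes, where 86.6% of the genes listed as lower did not. The count was also 12 without PBS replicate 2 (86.8%). Their median log2 fold change was -1.49 (-2.19 over all genes listed as lower), and -0.84 without PBS replicate 2 (-0.78). All 13 were still below 0 without that library, where only 0.385% of all genes listed as lower turned above 0. For 9 of the 13 the ratio of PBS to Akk means was over 1.5 times that without PBS replicate 2. The share of the whole table for this ratio was not counted. The higher genes had a median of 0.80 (0.74 over all genes listed as higher), and 0.79 without PBS replicate 2 (0.70). In these bulk libraries fewer cells of a type and less RNA per cell cannot be told apart.

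Crypt markers had their highest sums in PBS replicate 2, the library where all 13 lower carriers were highest. The 31 listed proliferation genes summed to 45.3 to 62.7 FPKM in Akk and to 101, 934 and 81.9 in PBS replicates 1 to 3. The 7 listed stem cell markers summed to 8.74 to 11.5 in Akk and to 16.01, 604 and 17.9 in PBS, and the 13 listed Paneth cell markers to 185 to 219 and 245, 10004 and 276. Most of the stem cell sum in PBS replicate 2 came from Olfm4, at 498 FPKM. No listed marker was at 0 in any library, and the markers not listed could not be seen. The 4 listed enterocyte markers (of 15: Apoa4, Apoc3, Ada and Nt5e) summed to 4787 to 6231 FPKM in Akk and to 2219, 589 and 3778 in PBS replicates 1 to 3, lowest in PBS replicate 2. Apoa4 made up most of these sums, at 3660 to 5057 FPKM in Akk and 1811, 467 and 3101 in PBS. The pancreas marker Clps had 2.45, 2.42 and 2.27 FPKM in Akk and 1.24, 66.1 and 1.56 in PBS, also highest in PBS replicate 2. The part of these cell types in the carrier values was not tested. Without PBS replicate 2 the ratios of PBS to Akk means of the 13 lower carriers ran from 1.37 (Slc27a1) to 3.04 (Slc39a8).

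Other transport genes were looked up by lists. Pdzk1, the scaffold protein that holds NHE3 and other carriers in the brush border, was the single gene listed of 21 that regulate or anchor solute carriers, as higher. It had 143, 134 and 99.1 FPKM in Akk and 53.3, 20.8 and 106 in PBS, with PBS replicate 2 lowest and PBS replicate 3 above Akk replicate 3, and a log2 fold change of 1.10 (SE 0.58, adjusted p = 0.118) with all libraries and 0.70 (SE 0.31, adjusted p = 0.0966) without PBS replicate 2. Of 31 epithelial ion channel genes 6 were listed as lower and 1 as higher, 0 passed edgeR with all libraries and 2 of the 7 passed without PBS replicate 2, both lower, where 19.5% of the table did (17.7% lower). Those were Kcnq1, the basolateral potassium channel, which fell by 1.22 (SE 0.30, adjusted p = 0.0433) against -3.34 (SE 1.08, adjusted p = 0.0861) with all libraries, and Clca3b, which fell by 1.17 (SE 0.20, adjusted p = 0.0352) against -4.20 (SE 1.26, adjusted p = 0.0861). Kcne3, the partner subunit of Kcnq1, had 0.923, 2.15 and 1.23 FPKM in Akk and 3.31, 68.6 and 2.80 in PBS.

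Slco2b1, an organic anion carrier outside the Slc naming, was the single gene listed of its 15-gene family. With all libraries its log2 fold change was -2.36 (SE 0.68, adjusted p = 0.0861). Without PBS replicate 2 it was -1.52 (SE 0.22, adjusted p = 0.0299). Slco2b1 had 2.13, 2.29 and 2.94 FPKM in Akk and 5.51, 24.1 and 8.26 in PBS. Of 14 genes of the sodium-potassium pump and its FXYD regulators, Fxyd3 and Fxyd6 were listed as lower and no pump subunit was listed. Of 12 aquaporins Aqp4 was listed, as lower, and none of these 3 genes passed edgeR with or without PBS replicate 2. None of 45 ABC transporters and none of 20 brush border digestive enzymes was listed.

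The 3 genes of the table nearest to the most abundant carrier of each direction were found by Euclidean distance of centred log2(FPKM + 0.1) over the 6 libraries. For Slc9a3 they were Vamp5 (distance 0.524), Fzd4 (0.544) and Trim38 (0.613). Vamp5, a vesicle membrane protein, had 13.7, 11.8 and 3.78 FPKM in Akk and 3.63, 3.08 and 4.45 in PBS, also lowest in Akk replicate 3 among the Akk libraries. For Slc1a1 they were Spag5 (0.451), Noc4l (0.481) and Alg8 (0.499). Spag5, a mitotic spindle protein, had 0.738, 1.14 and 1.58 FPKM in Akk and 1.44, 10.02 and 2.85 in PBS, again lowest in Akk replicate 1 and highest in PBS replicate 2.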

How the data were processed

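The labels' protocols name Trizol for the extraction of RNA and an Illumina kit for mRNA libraries. The build, per the submitters' processing notes, is mm10; which aligner, counter, annotation and strand setting were used is not given in the sources used here. For each of 6 libraries the authors deposited raw whole-number counts per gene and FPKM, per the file headers. A p-value per gene comes from the authors' own test and is at most 0.0498, per the file headers, with no word on adjustment. The log2 fold changes were computed by the authors, per the file headers, by a method not stated; the smallest is 1.50-fold in either direction. Left out were 2 lines of annotation text, and 1 symbol that a spreadsheet had made a date was replaced through its identifier. Coordinates are from GENCODE M21 (GRCm38, the assembly mm10 names), where all 27 members were found.

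Library size was the depth implied by the ratio of count to FPKM, over 560 genes with at least 200 counts in every library (its absolute scale from GENCODE exon lengths), since totals of a table of selected genes are not depth. Counts were tested with edgeR 4.0.16 (R 4.3.3; filterByExpr, quasi-likelihood F test, Benjamini-Hochberg over all 1386 genes at 0.05), Akk against PBS, on all 6 libraries. SE is the fold change divided by the square root of F. Alternatives used DESeq2 1.42.0, limma 3.58.1 (voom on counts, and a trend fit on log2(FPKM + 0.1) and log2(FPKM + 1)), other scalings and filters, the replicate number as a block, and each library left out in turn. Scripts were tested on simulated counts that varied less within groups than these libraries and held no outlying library. That run does not show how the fits behave on these libraries. The members and gene lists were chosen with earlier results of these data known. All members were named, by the rule that classes of at most 6 are named in full, and up to 3 genes per list by smallest p. Ada, Nt5e, Kcne3, Kcnq1, Clca4a, Pck2 and Shmt2, the 20 absorptive carriers and the genes with printed promoters were chosen after values were seen. Promoters are from RefSeq, GRCm38.p6.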

Additional observations from a re-analysis of the deposited data

How the results depend on the processing

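The table of selected genes, PBS replicate 2 and Akk replicate 3 limit these results, and 3 libraries per group limit every adjusted p. The count of 0 solute carrier genes past the threshold became 14 with DESeq2 (5 higher, 9 lower). It stayed 0 with RLE, upper-quartile and TMM factors from the listed genes, with no filter or a CPM of at least 1 in 3 libraries (neither filter removed a gene, so they say nothing about stability), with limma-voom and limma-trend, and with the replicate block. With 1 library omitted at a time the count ran from 0 to 5, from 0 to 1 for higher and from 0 to 5 for lower genes. Non-overlapping genes numbered 0 to 12 as higher and 12 to 13 as lower when each library was left out, and 0 and 13 with CPM in place of FPKM. Of all genes listed in the same direction, 40.8% to 81.2% (higher) and 86.8% to 94.0% (lower) did not overlap when each library was left out. With CPM these shares were 37.9% and 87.8%.

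The median log2 fold change of the higher genes, 0.80 as reported, was 1.85 with RLE, 1.88 with TMM and 1.43 with upper-quartile factors, and 0.56 to 0.88 over the libraries left out in turn. That of the lower genes, -1.49 as reported, was -0.093 with RLE, -0.087 with TMM and -0.52 with upper-quartile factors, and -1.79 to -0.84 over the libraries left out. Such factors assume that most genes do not differ and moved the median of all 1386 genes from -1.85 to -0.15, -0.17 and -0.63. With RLE and TMM factors 6 lower genes turned positive: Slc35b4 (0.059 and 0.040), Slc25a12 (0.025 and 0.035), Slc41a1 (0.094 and 0.085), Slc27a1 (0.13 and 0.12), Slc44a3 (0.079 and 0.091) and Slc12a8 (0.23 and 0.23). No other alternative turned the sign of a member. The deviations of libraries with the same number had correlations of 0.24, -0.08 and -0.30, so the numbers were not taken to pair the samples. With the replicate block 0 members passed, and 1 of the 6 libraries correlated best with its own number.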

Other observations

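The genes nearest to 4 further carriers were looked up after their values were seen, with the same distance over the 6 libraries. For Slc28a2, the purine nucleoside carrier, they were Nt5e (0.750), Ada (0.802) and Lama3 (0.930), of which Nt5e makes adenosine and Ada deaminates it. For Slc34a2 the nearest was Slc17a4 (1.07), the other phosphate carrier family member, followed by Arsg (1.28) and Itpr1 (1.29). For Slc7a1 they were Cks1b (0.201), a cell cycle subunit, Cep68 (0.278), a centrosome protein, and newGene_1698 (0.316), a locus without a gene name. Cks1b had 0.956, 1.06 and 1.24 FPKM in Akk and 2.52, 20.4 and 2.37 in PBS. Slc23a4 had no neighbour closer than Strc (0.884).

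Clca4a, an enterocyte protein of the calcium-activated chloride channel regulator family and the single ion channel list member listed as higher, had 104, 226 and 280.1 FPKM in Akk and 77.9, 13.8 and 113 in PBS. Like Slc28a2 and Ada it was lowest in Akk replicate 1 among the Akk libraries and lowest of all in PBS replicate 2. Arsg shares 48 exon bases with Slc16a6 on the opposite strand and had 9.41, 9.83 and 0.833 FPKM in Akk and 0.770, 1.10 and 2.498 in PBS.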
